A study of Mus musculus with 8 samples.

Results

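Fibroblast growth factors (FGFs) and their receptors were followed in 2 fractions of sorted mouse lung fibroblasts, one with and one without surface CD249. The 10 genes were taken by symbol from a table of 25509 mouse genes and comprise 6 ligands (Fgf1, Fgf2, Fgf7, Fgf9, Fgf10 and Fgf18) and the 4 signalling receptors (Fgfr1, Fgfr2, Fgfr3 and Fgfr4). Lungs of 4 wild-type C57Bl6/J mice, numbered 2, 7, 8 and 10, were dissociated, and cells negative for CD45, CD326 and CD31 (surface markers of leukocytes, epithelium and endothelium) were sorted by CD249, giving 4 CD249+ and 4 CD249- libraries. Both fractions of a lung were collected together in equal cell number, so the comparison was made within each mouse; age and treatment are not given in the labels. CD249 is glutamyl aminopeptidase, the product of Enpep, and each fraction can hold several kinds of mesenchymal cell. The question was how the FGF genes differ between the 2 fractions of the same lung.

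FGFs are secreted proteins that bind receptor tyrosine kinases together with heparan sulfate chains on the cell surface, and the receptor then signals through adaptor proteins to the Ras and MAP kinase pathway. In mouse lung development Fgf10 is made by mesenchyme and acts on Fgfr2 of the epithelium to drive branching, and Fgf9 is made by mesothelium and epithelium and acts on mesenchyme. Fgf7 acts mainly on epithelial cells, Fgf18 and the receptors Fgfr3 and Fgfr4 are known for roles in forming alveoli in mice, and Fgf1 and Fgf2 are ligands that leave the cell without a classical secretion signal.

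Libraries held 23011383 to 31906414 estimated counts and 15456 to 16526 detected genes. Levels are given as CPM, counts relative to a common library total after correction by the trimmed mean of M values (TMM), in the order of mice 2, 7, 8 and 10. Enpep checked the sort, with 240, 221, 175 and 329 CPM in CD249+ cells against 7.54, 5.99, 5.13 and 17.3 CPM in CD249- cells. The fractions also differed in cell type markers, where a rise or fall is a call of the test described below. For comparison, 19.3% of all genes tested rose and 17.1% fell. All 8 alveolar fibroblast markers rose in CD249+ cells (summed CPM 5680 to 11273, against 765 to 1149 in CD249- cells), as did 6 of 7 general fibroblast markers, 7 of 8 pericyte markers and 7 of 7 myofibroblast or smooth muscle markers. Of 7 adventitial fibroblast markers, 1 rose, 2 fell and 4 did not pass (summed CPM 2765 to 6072, against 4025 to 5938 in CD249- cells). All 10 endothelial markers fell (3771 to 7145, against 11672 to 15716 summed CPM in CD249- cells) although the sort was for cells without CD31, whose gene Pecam1 stood at 611 ± 239 CPM in CD249+ cells against 1667 ± 248 CPM in CD249- cells (SD, n = 4 each). Ptprc, the gene of CD45, had 63.1 ± 22.8 CPM in CD249+ cells against 123 ± 58.0 CPM in CD249- cells. Of 9 leukocyte markers, 5 fell and 4 did not pass, and their summed CPM overlapped (1210 to 3462, against 1742 to 2740 in CD249- cells). Of 7 platelet or red cell markers, 6 fell and 1 did not pass. In bulk RNA, fewer cells of a type and less RNA per cell cannot be told apart. The part of these markers in the FGF differences was not tested. A rescaling to collagen transcripts, given with the results, shifts all genes by nearly the same amount and cannot measure that part.

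Of the 10 genes, 8 were higher in CD249+ cells, 1 was lower (Fgf1) and 1 did not pass the test (Fgf9), by edgeR's quasi-likelihood test with mouse as a block and Benjamini-Hochberg adjustment over 14524 genes at 0.05. All 10 passed the filter on low counts. Of all genes tested, 36.5% were called, 19.3% higher and 17.1% lower, so a call by itself is common here. The median log2 fold change was 2.16 over the 10 genes and -0.02 over all genes tested. CPM of the fractions did not overlap for 9 of the 10 genes, whereas among all genes tested CD249+ libraries lay wholly above CD249- libraries for 17.8% and wholly below for 15.8%. Fgfr4 and Fgf10 differed most, and 0.847% and 1.19% of all genes tested had larger log2 fold changes.

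**Figure D1:**
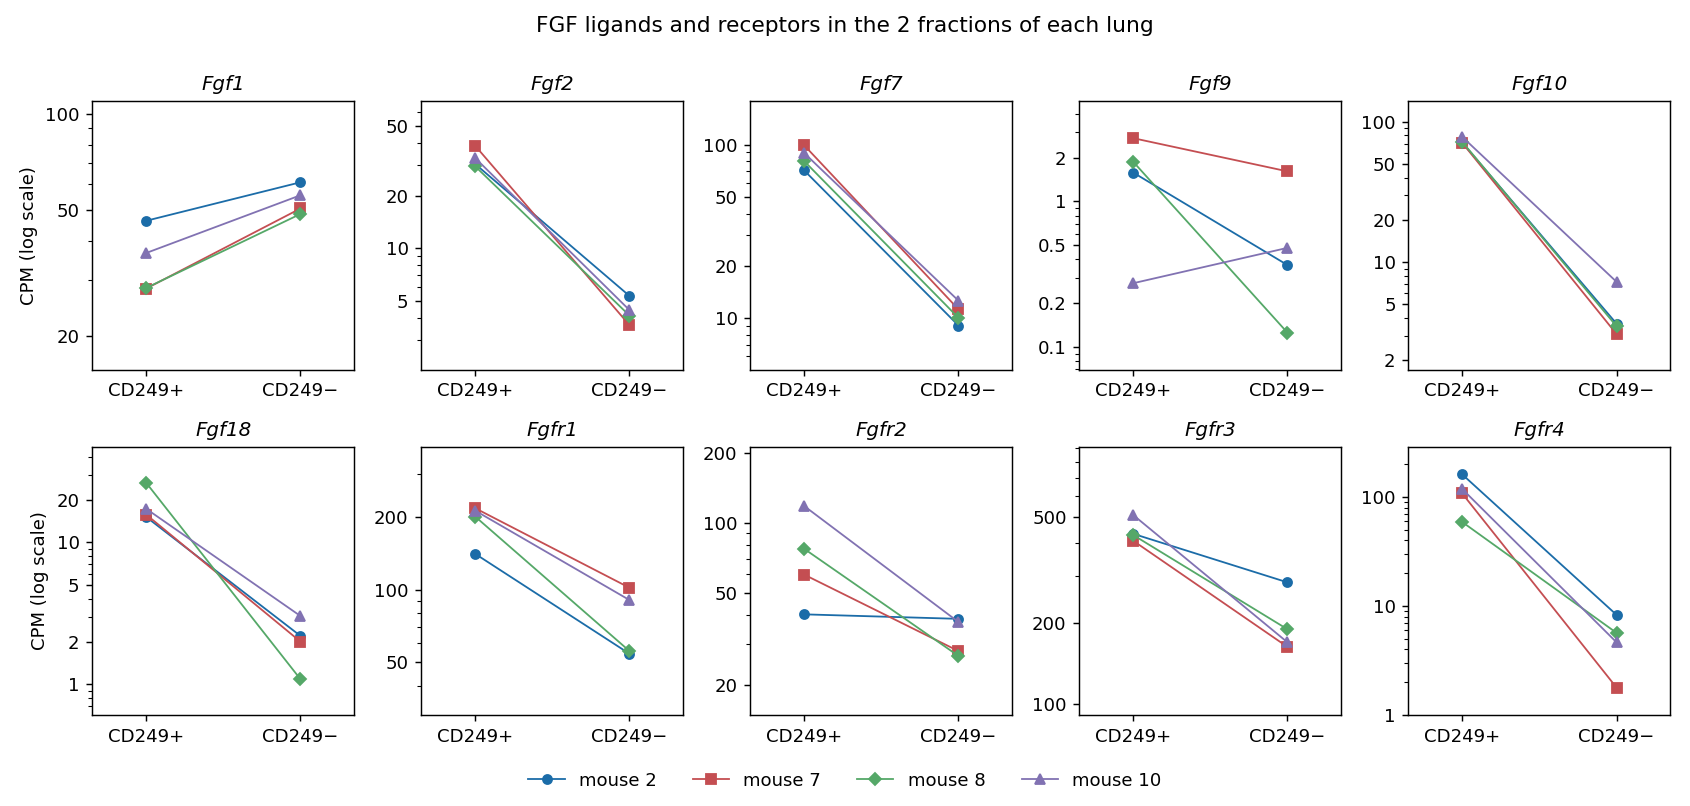
CPM (log scale, each panel with its own range) of the 10 FGF genes in the CD249+ and CD249- fractions, 1 marker per library and lines joining the fractions of a mouse. The lines fall towards CD249- for 8 genes, rise for Fgf1 and run both ways for Fgf9.

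The sequences just upstream of 3 ligand genes are shown because these ligands, Fgf7, Fgf10 and Fgf18, were 7.92- to 17.5-fold higher in CD249+ cells. Each is the 250 bases before the RefSeq start of the gene (GRCm38.p6), 5′ to 3′ on the strand of the gene: chr2:126034408-126034657, plus strand, for Fgf7; chr13:118714449-118714698, plus strand, for Fgf10; and chr11:33147401-33147650, minus strand, for Fgf18. Capitals mark the GC box, GGGCGG or its reverse complement.
Fgf7: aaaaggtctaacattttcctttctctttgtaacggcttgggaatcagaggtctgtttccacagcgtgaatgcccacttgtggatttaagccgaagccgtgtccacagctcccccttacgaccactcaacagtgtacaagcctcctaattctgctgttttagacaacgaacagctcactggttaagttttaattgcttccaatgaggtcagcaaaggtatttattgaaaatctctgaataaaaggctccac
Fgf10: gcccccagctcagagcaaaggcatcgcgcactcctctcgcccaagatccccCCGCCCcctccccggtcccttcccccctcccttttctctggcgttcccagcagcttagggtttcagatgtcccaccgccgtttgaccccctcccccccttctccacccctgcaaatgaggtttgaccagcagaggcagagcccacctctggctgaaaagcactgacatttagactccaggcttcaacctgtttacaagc
Fgf18: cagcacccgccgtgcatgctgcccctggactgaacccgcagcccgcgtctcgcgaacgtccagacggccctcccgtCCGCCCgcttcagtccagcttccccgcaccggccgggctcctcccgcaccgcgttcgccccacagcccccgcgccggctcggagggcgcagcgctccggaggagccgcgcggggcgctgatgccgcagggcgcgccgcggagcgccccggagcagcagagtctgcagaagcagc
The Fgf10 window lies within the longer gene that GENCODE M21 annotates, outside its exons, and the other 2 windows end at the annotated gene start.

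A search of both strands for 5 motifs, chosen after the values were seen, found 1 GC box in the Fgf10 window, 199 bases before the start, 1 in the Fgf18 window, 174 bases before the start, and none in the Fgf7 window. GC boxes were present in 32.7% of the 32851 RefSeq windows of this length. The other 4 motifs were absent from the 3 windows: the T-box half-site AGGTGT (present in 11.8% of all windows), the TATA box TATAAA (12.4%), the TEAD site GGAATG (12.6%) and the GLI core GGGTGGTC (0.703%). No 2 matches overlapped in these windows. RefSeq windows matched 8 of the 10 genes, with none for Fgf1 or Fgfr1. Of the windows not shown, 1 of Fgfr3 held a T-box half-site 239 bases before its start. GC boxes were found in those of Fgf2, Fgfr3 and Fgfr4, and those of Fgf9 and Fgfr2 held none of the 5 motifs. Fgf2 and Fgfr4, also among the 5 genes with the largest fold changes, have windows that overlap exons annotated in GENCODE M21, which are not shown.

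Fgf10 (ENSMUSG00000021732.14, chromosome 13, 118669791 to 118792115, GRCm38) showed the largest difference among the ligands. CD249+ libraries held 71.2, 71.0, 72.0 and 78.2 CPM of Fgf10, against 3.65, 3.08, 3.50 and 7.26 CPM in CD249- libraries. The CD249+ libraries of the 4 mice lay close together, and the CD249- library of mouse 10 stood above those of the other mice without reaching the CD249+ range. Fgf10 was 17.5-fold higher in CD249+ cells (log2 fold change 4.13, SE 0.20, adjusted p = 2.84e-06). Within mice the ratio of CD249+ to CD249- CPM was 19.5, 23.0, 20.6 and 10.8, lowest in mouse 10.

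Fgf7 (ENSMUSG00000027208.14, chromosome 2, 126034658 to 126091185) encodes keratinocyte growth factor, a ligand of the epithelial form of Fgfr2. Its level was 70.9, 98.9, 80.2 and 89.3 CPM in CD249+ cells against 9.03, 11.2, 10.0 and 12.6 CPM in CD249- cells. The fractions stood far apart in every mouse, and the ratio within mice varied little, from 7.11 to 8.83. The difference was 7.92-fold (log2 fold change 2.99, SE 0.10, adjusted p = 6.85e-07).

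Fgf18 (ENSMUSG00000057967.12, chromosome 11, 33117430 to 33147400), a ligand that acts on mesenchymal cells in the developing lung, was less abundant. CD249+ libraries had 15.2, 15.8, 26.4 and 17.3 CPM and CD249- libraries 2.19, 2.00, 1.08 and 3.03 CPM. Mouse 8 had both the highest CD249+ and the lowest CD249- value, a ratio of 24.3, while the other mice gave 5.71 to 7.89. Fgf18 was 8.97-fold higher in CD249+ cells over all mice (adjusted p = 0.000204, log2 fold change 3.16, SE 0.35) and kept a log2 fold change of 2.76 without mouse 8.

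Fgf2 (ENSMUSG00000037225.13, chromosome 3, 37348346 to 37410108), basic FGF, a broad mitogen of mesenchymal and endothelial cells, had 30.3, 38.5, 29.4 and 32.8 CPM in CD249+ cells against 5.35, 3.64, 4.13 and 4.44 CPM in CD249- cells. The fractions were well separated in each mouse. The difference was 7.47-fold (log2 fold change 2.90, SE 0.19, adjusted p = 1.22e-05). Exons of Fgf2 share 640 bp (9.44% of their length) with Nudt6, an antisense gene on the opposite strand, and the library kit does not mark strand, so reads of that stretch cannot be assigned by strand. Nudt6, chosen after its value was seen, had 3.89 ± 0.572 CPM in CD249+ cells against 3.64 ± 1.20 CPM in CD249- cells (SD, n = 4 each, log2 fold change 0.14, SE 0.40, adjusted p = 0.813).

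Fgf1 (ENSMUSG00000036585.15, chromosome 18, 38838673 to 38929472), acidic FGF, a ligand that binds all the FGF receptors, was the 1 gene of the set that fell in CD249+ cells. Its CPM were 46.1, 28.2, 28.4 and 36.5 in CD249+ cells against 61.0, 50.4, 48.5 and 55.5 in CD249- cells. The fractions did not overlap, although the CD249+ value of mouse 2 came close to the CD249- value of mouse 8. Fgf1 was lower in 4 of 4 mice (log2 fold change -0.65, SE 0.11, adjusted p = 0.00177). Without the mouse block the adjusted p was 0.0172, and with the CD249+ library of mouse 8 also left out the call was lost (log2 fold change -0.54, adjusted p = 0.0509). Endothelial and mesothelial markers fell with it, and their part in the Fgf1 difference was not tested. Of the 6 tested mesothelial markers 5 were called lower, against 17.1% of all genes tested. Summed CPM of the mesothelial markers was 25.3 to 54.4 in CD249+ cells and 84.2 to 220 in CD249- cells.

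Fgf9 (ENSMUSG00000021974.14, chromosome 14, 58070547 to 58112720), the mesothelial and epithelial ligand, was close to the detection limit. It had 1.58, 2.73, 1.88 and 0.274 CPM in CD249+ cells against 0.365, 1.61, 0.125 and 0.480 CPM in CD249- cells, from 8 to 77 counts in CD249+ libraries and 3 to 46 counts in CD249- libraries. The fractions overlapped, with 3 of 4 mice higher in CD249+ cells and mouse 10 lower. The log2 fold change of 1.42 (SE 0.95) did not pass the test (adjusted p = 0.285), so no difference was detected. Ratios within mice were 4.33, 1.69, 15.0 and 0.571, and the parts of depth and of this spread were not tested.

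Among the receptors, Fgfr4 differed most and the other 3 by 2.13- to 2.61-fold. Fgfr4 (ENSMUSG00000005320.9, chromosome 13, 55152640 to 55168759), a receptor best known in liver as the partner of Fgf15, had 161, 108, 59.0 and 118 CPM in CD249+ cells. CD249- cells had 8.30, 1.79, 5.67 and 4.65 CPM. Mouse 8 had the lowest CD249+ value and mouse 7 the lowest CD249- value, and the fractions were far apart in all 4 mice. Fgfr4 was 22.5-fold higher in CD249+ cells (log2 fold change 4.49, SE 0.34, adjusted p = 2.65e-05). The ratio within mice spread more widely than for the ligands Fgf7 and Fgf10, at 19.4, 60.3, 10.4 and 25.5.

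Fgfr3 (ENSMUSG00000054252.17, chromosome 5, 33721674 to 33737068), a receptor known for restraining bone growth, had 432, 407, 428 and 508 CPM in CD249+ cells against 285, 164, 190 and 170 CPM in CD249- cells. The fractions did not overlap, and mouse 2 had the highest CD249- value. The difference was 2.24-fold (log2 fold change 1.17, SE 0.14, adjusted p = 0.000348). G630022F23Rik, a provisional transcript on the opposite strand, shares 998 bp (13.9%) of the Fgfr3 exons and is not used here.

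Fgfr1 (ENSMUSG00000031565.17, chromosome 8, 25513654 to 25575718), the receptor typical of mesenchymal cells, had 141, 217, 201 and 212 CPM in CD249+ cells against 54.2, 102, 55.6 and 90.5 CPM in CD249- cells. Mouse 2 was lowest in both fractions, and the fractions did not overlap. The difference was 2.61-fold (log2 fold change 1.39, SE 0.12, adjusted p = 5.45e-05). General fibroblast markers followed the same order between fractions, and their part in the Fgfr1 difference was not tested. Summed CPM of these markers was 13088 to 24031 in CD249+ cells and 4922 to 12199 in CD249- cells, lowest in mouse 2 in both.

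Fgfr2 (ENSMUSG00000030849.17, chromosome 7, 130162451 to 133123350), the receptor of Fgf7 and Fgf10 in epithelium, differed widely between mice. Its CPM were 40.3, 59.8, 77.1 and 118 in CD249+ cells against 38.6, 28.1, 26.7 and 37.4 in CD249- cells. In mouse 2 the fractions were nearly level, a ratio of 1.05, and the ratios were 2.13, 2.89 and 3.15 in mice 7, 8 and 10. The difference over all mice was 2.13-fold (log2 fold change 1.09, SE 0.24, adjusted p = 0.0081). In mice 2 and 10 alone the log2 fold change of 0.87 no longer passed the test (adjusted p = 0.127), and over all settings other than the collagen scaling the adjusted p ran from 2.86e-05 to 0.127. Gene-level counts do not separate the epithelial from the mesenchymal splice form of Fgfr2. The span that GENCODE M21 annotates for Fgfr2 runs into that of Ctbp2 (132987563 to 133124354), and 314 bp (3.04%) of the Fgfr2 exons are shared with Ctbp2.

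The sum of epithelial markers, most of it Sftpc, stood in the order of Fgfr2 in the CD249+ libraries but not in the CD249- libraries. In the CD249+ libraries Sftpb and Cdh1 also kept this order, while Epcam, at 7.54, 2.27, 7.71 and 14.4 CPM, did not. Summed CPM of 10 epithelial markers was 413, 549, 895 and 8367 in CD249+ cells against 218, 165, 175 and 726 in CD249- cells. Among CD249- libraries these markers were highest in mouse 10 and Fgfr2 in mouse 2. Of the 9 epithelial markers tested, 3 rose, none fell and 6 did not pass, while 19.3% of all genes tested rose and 17.1% fell. Sftpc, the surfactant gene of alveolar type 2 cells, had 320, 483, 781 and 7551 CPM in CD249+ cells against 126, 58.6, 126 and 448 CPM in CD249- cells. Epcam, the gene of the sort marker CD326, did not differ past the test, at 7.98 ± 4.97 CPM in CD249+ cells against 7.46 ± 1.62 CPM in CD249- cells (SD, n = 4 each, log2 fold change -0.11, adjusted p = 0.857). Without both libraries of mouse 10, which held most of the epithelial signal, the log2 fold change of Fgfr2 was 0.90 (adjusted p = 0.030). The part of epithelial RNA in the remaining difference was not tested. Sftpc, Sftpb and Cdh1 were chosen after their values were seen, as were Etv5 and Sdc1 in the plot of Fgfr2 beside epithelial transcripts.

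**Figure D2:**
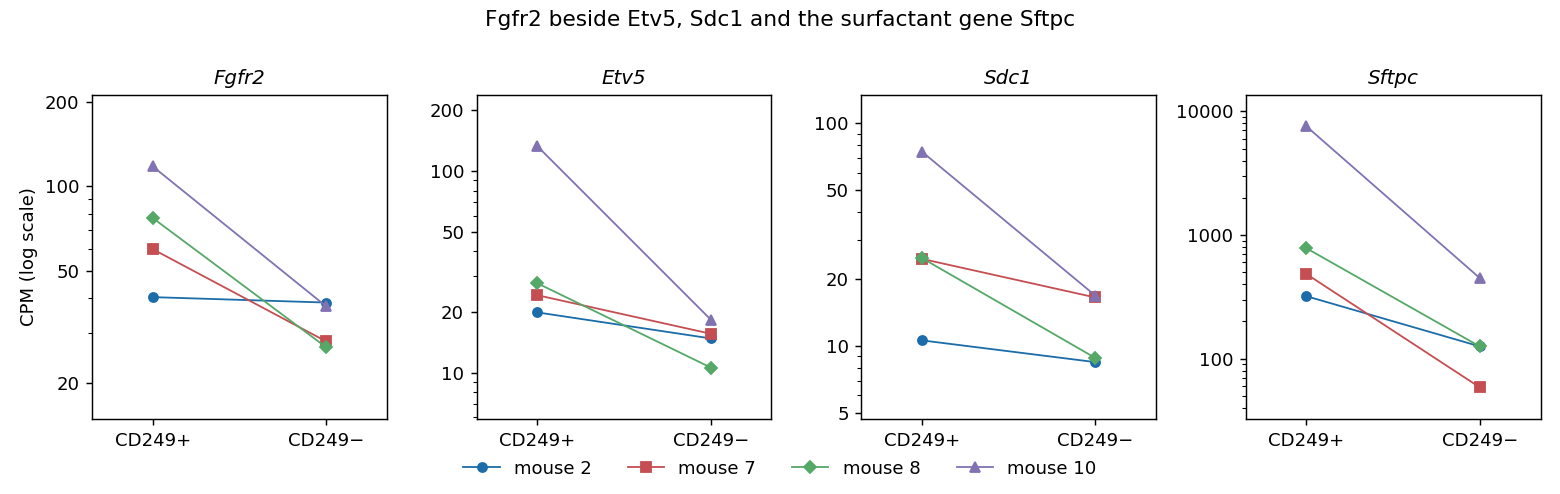
CPM (log scale) of Fgfr2, the FGF target gene Etv5, the syndecan gene Sdc1 and the surfactant gene Sftpc in the CD249+ and CD249- fractions, 1 marker per library and lines joining the fractions of a mouse. Mouse 10 is highest in CD249+ cells for all 4 genes, with 118 CPM of Fgfr2 and 7551 CPM of Sftpc.

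CD249+ libraries held more collagen RNA, and all 8 core collagen genes rose (median log2 fold change 1.57), against 19.3% of all genes tested. Dividing each library by the summed counts of these 8 genes therefore lowers every fold change, and moves the median of all genes to -1.62. Relative to the collagens, Fgf10 and Fgfr4 remained 2.54 and 2.93 log2 units higher in CD249+ cells, and Fgf18, Fgf7 and Fgf2 remained 1.60, 1.39 and 1.30 higher. Fgfr1, Fgfr2 and Fgfr3 turned to -0.21, -0.51 and -0.44 on this scale, and Fgf1 moved to -2.25. On that scale Fgfr2 and Fgfr3 were called lower in CD249+ cells (adjusted p = 0.0299 and 0.0373) and Fgfr1 was not called (adjusted p = 0.336), so the direction for these receptors depends on the scaling. This scaling shifts all genes by nearly the same amount, so those that stayed above 0 were the 5 with the largest fold changes under TMM scaling. Fgf1, already below 0, could not change sign under a scaling that lowers every fold change.

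**Figure D3:**
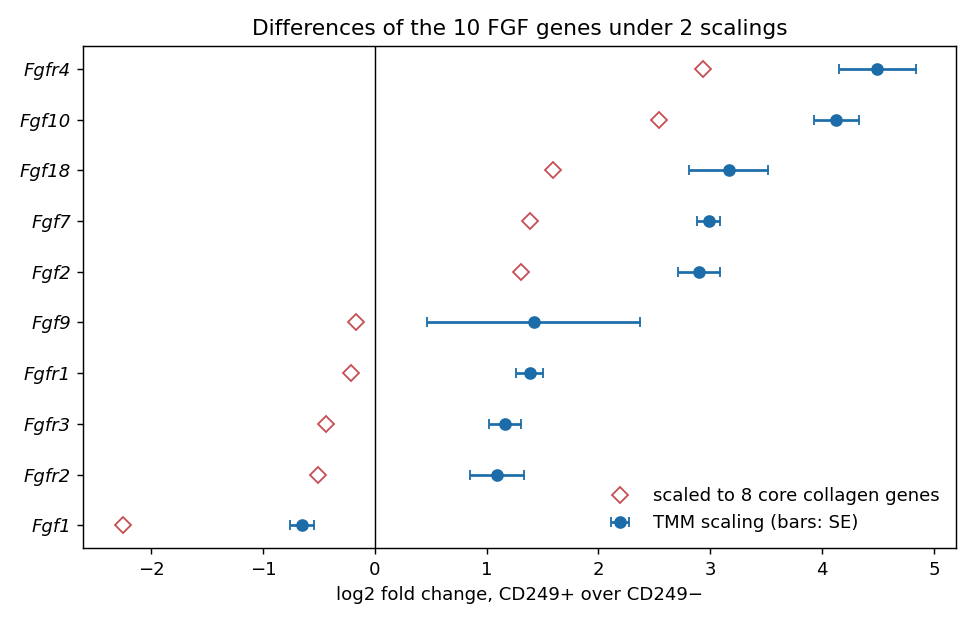
Log2 fold change (CD249+ over CD249-) of the 10 FGF genes with its standard error, after TMM scaling and after scaling to 8 core collagen genes. Fgf2, Fgf7, Fgf10, Fgf18 and Fgfr4 stay above 0 in both, and Fgf9, Fgfr1, Fgfr2 and Fgfr3 fall below 0 after scaling to the collagens.

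Levels were compared between genes after dividing CPM by exonic length. Among the 6 ligands, Fgf1 made up 9.32% ± 2.88 of the length-scaled total in CD249+ cells and 59.5% ± 4.58 in CD249- cells (SD, n = 4 each). Fgf7 was the most abundant ligand in CD249+ cells at 37.6% ± 4.28, against 19.9% ± 2.71 in CD249- cells. Fgf10 followed with 23.0% ± 1.48 in CD249+ cells and 5.61% ± 1.88 in CD249- cells, and Fgf18 with 22.6% ± 5.46 in CD249+ cells and 10.3% ± 2.91 in CD249- cells, so Fgf10 and Fgf18 did not differ beyond their spread in CD249+ cells. Fgf2 took 6.98% ± 0.848 in CD249+ cells and 3.90% ± 0.574 in CD249- cells, and Fgf9 less than 1% on average in both. The leading ligand was thus Fgf7 in all 4 CD249+ libraries, where it took 34.0% to 43.2%, and Fgf1 in all 4 CD249- libraries, where it took 53.7% to 64.0%.

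Among the 4 receptors, Fgfr3 was the most abundant per length in both fractions, at 51.8% ± 3.92 of the total in CD249+ cells and 69.0% ± 7.42 in CD249- cells (SD, n = 4 each). Fgfr4 made up 25.9% ± 8.52 in CD249+ cells, from 16.0% to 36.7%, and 3.45% ± 1.46 in CD249- cells, from 1.39% to 4.56%. Fgfr1 took 16.4% ± 3.73 in CD249+ cells and 19.7% ± 8.04 in CD249- cells, and Fgfr2 5.91% ± 2.29 in CD249+ cells and 7.85% ± 1.15 in CD249- cells, with overlapping ranges for both. In CD249+ cells the ranges of Fgfr4 and Fgfr1 overlapped, so the order of these 2 receptors was not resolved. Shares within a library do not depend on the scaling between libraries, but they depend on the gene length used. Exonic length exceeds the longest transcript for Fgfr1 (9875 against 5041 bp), Fgfr2 (10328 against 4429 bp) and Fgfr3 (7158 against 4245 bp). For Fgfr4 the 2 lengths are close (3542 against 3324 bp), so its share is lower when scaled to the longest transcript.

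The rest of the pathway was described with lists of genes, without a test of the lists. Of 16 other FGF ligands, 6 had no count in any library and 6 more had too few counts to be tested. The other 4 were tested and 0 were called by edgeR's quasi-likelihood test, 0 at an unadjusted p under 0.05 and 0 by DESeq2 or limma-voom. Calls by edgeR over all genes tested were 36.5%. Fgf11, an FGF that stays inside the cell, had 3.85 ± 1.42 CPM in CD249+ cells against 2.78 ± 0.897 CPM in CD249- cells (SD, n = 4 each, log2 fold change 0.45, SE 0.48, adjusted p = 0.505). Fgf16 had 1.72 ± 0.407 CPM in CD249+ cells against 2.63 ± 0.607 CPM in CD249- cells (log2 fold change -0.61, SE 0.51, adjusted p = 0.39), and Fgf13 and Fgf14 averaged under 1 CPM in both fractions.

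Coreceptors and binding proteins hold FGFs at the cell surface or in the matrix. Of all genes tested, 19.3% rose and 17.1% fell. In this list of 19 tested, 10 rose, 3 fell and 6 did not pass the test (median log2 fold change 0.67). The 4 with the smallest p were heparan sulfate proteoglycans of the cell surface. Gpc1 (glypican 1) had 113 ± 19.0 CPM in CD249+ cells against 12.7 ± 4.13 CPM in CD249- cells (SD, n = 4 each, log2 fold change 3.20, SE 0.21, adjusted p = 1.26e-05). The syndecan genes Sdc4 and Sdc2 rose by 2.10 and 1.89 log2 units, and Gpc3, the glypican 3 gene, by 1.44, though Gpc3 turned to -0.16 relative to the collagens. The 3 that fell were Sdc3 (-0.60), Fgfbp3, which encodes a carrier that releases FGFs from the matrix (-0.86), and Ncam1 (-0.82), named after their values were seen. Without the mouse block the adjusted p of Fgfbp3 was 0.143 and that of Ncam1 0.144, and 1 gene of the list was then called lower.

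Of 14 heparan sulfate enzymes tested, 6 rose, 1 fell and 7 did not pass (median log2 fold change 0.31). Calls over all genes tested were 19.3% higher and 17.1% lower. Ext1, an enzyme that extends the heparan sulfate chain, had 123 ± 10.8 CPM in CD249+ cells against 54.3 ± 3.76 CPM in CD249- cells (SD, n = 4 each, log2 fold change 1.17, SE 0.09, adjusted p = 2.26e-05), and turned to -0.43 relative to the collagens. Hs3st3a1, a 3-O-sulfotransferase gene, rose by 3.52 (SE 0.67, adjusted p = 0.00379), and Hs6st1, a 6-O-sulfotransferase gene, by 0.88 under TMM scaling, against -0.72 relative to the collagens. The 1 gene that fell was Hs3st1, another 3-O-sulfotransferase gene, with 69.6 ± 6.46 CPM in CD249+ cells against 174 ± 18.2 CPM in CD249- cells (log2 fold change -1.32, SE 0.11, adjusted p = 4.23e-05).

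Of 25 adaptors and transducers tested, 4 rose, 6 fell and 15 did not pass (median log2 fold change -0.04). Their share of calls was thus near the 36.5% of all genes tested. Those that fell included Plcg1, the phospholipase that receptors phosphorylate (-0.94), Mapk3, the ERK1 kinase gene (-0.62), and the GTPase gene Nras (-0.66). Plcg1 had 155 ± 31.9 CPM in CD249+ cells against 293 ± 31.5 CPM in CD249- cells (SD, n = 4 each, adjusted p = 0.000103). Among those that rose, Gab1 had a log2 fold change of 0.69 and Frs2, the docking protein of FGF receptors, 0.53, both named after their values were seen and both below 0 relative to the collagens (-0.91 and -1.08).

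Feedback inhibitors of FGF signalling split, with 5 of 14 higher, 4 lower and 5 not passing (median log2 fold change -0.18). Among all genes tested, 19.3% rose and 17.1% fell. Spry1 (Sprouty 1) rose to 393 ± 49.2 CPM in CD249+ cells against 119 ± 7.75 CPM in CD249- cells (SD, n = 4 each, log2 fold change 1.72, SE 0.07, adjusted p = 1.48e-06). Lrig1, which encodes a membrane inhibitor of growth factor receptors, rose by 1.85, and Spred1 by 0.74. Dusp7, a MAP kinase phosphatase gene, fell by 0.81 on the log2 scale. Dusp6, the phosphatase gene commonly read as a marker of ERK activity, also fell (-0.50, SE 0.12, adjusted p = 0.00984), and Spry4 and Spry2 had log2 fold changes of -0.33 and -0.04 that did not pass the test (adjusted p = 0.125 and 0.933). These last 3 were named after their values were seen. Relative to the collagens, Spry1 and Lrig1 stood at 0.12 and 0.26, and Spred1 at -0.86. Over the 12 fits that left out a mouse or a library, 3 to 4 genes of the list were higher, with 3 when mouse 7, 8 or 10 was left out and, with the block dropped, on removing CD249+ cells of mouse 2, 7 or 10 or CD249- cells of mouse 2, 8 or 10. Dusp4, another phosphatase gene named after its value was seen, rose by 1.10 with the mouse block (adjusted p = 0.0235) and was not called without it (adjusted p = 0.0994).

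Of 11 transcriptional targets tested, 6 rose, 4 fell and 1 did not pass (median log2 fold change 0.90). Shares over all genes tested were 19.3% higher and 17.1% lower. Etv1, an ETS factor gene, had 49.2 ± 9.53 CPM in CD249+ cells against 7.76 ± 1.98 CPM in CD249- cells (SD, n = 4 each, log2 fold change 2.68, SE 0.17, adjusted p = 1.17e-05) and remained 1.08 higher relative to the collagens. Egr1, an immediate early gene, and Phlda1 rose by 1.43 and 1.51, and turned to -0.17 and -0.09 relative to the collagens. Elk3, an ETS repressor gene, fell by 1.29. Etv5, another ETS target, had 19.9, 24.2, 27.7 and 133 CPM in CD249+ cells against 14.8, 15.6, 10.6 and 18.3 CPM in CD249- cells (log2 fold change 1.32, SE 0.37, adjusted p = 0.0237), with mouse 10 far above the rest in CD249+ cells, as for the epithelial markers. Without both libraries of mouse 10, left out after the data were seen, Etv5 had a log2 fold change of 0.81 (adjusted p = 0.0285). The counts depended on single libraries once the mouse block was dropped: 3 genes were higher when CD249- cells of mouse 2, 7 or 10 were removed. The number lower was 1 on removing CD249+ cells of mouse 7, 8 or 10 or CD249- cells of mouse 2, and 2 on removing CD249- cells of mouse 7, 8 or 10. With all libraries and no block, Bhlhe40 and Ier3, named after their values were seen, lost their calls (adjusted p = 0.0501 and 0.164).

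Lung mesenchyme regulators were listed for their links to Fgf10. Of 13 tested, 9 rose, 1 fell and 3 did not pass (median log2 fold change 1.63). Over all genes tested, 19.3% rose and 17.1% fell. Whether the listed genes act on Fgf10 in these cells was not tested, and the list holds Tcf21, also a fibroblast marker. Tbx4, a T-box factor gene of lung mesenchyme, had 308, 345, 327 and 330 CPM in CD249+ cells against 16.5, 21.5, 20.4 and 22.5 CPM in CD249- cells. The fractions stood far apart in every mouse (adjusted p = 2.12e-07, log2 fold change 4.02, SE 0.09). Its partner Tbx5 rose by 3.52, the hedgehog inhibitor gene Hhip by 4.52 and Bmp4, a BMP ligand gene, by 1.67. Relative to the collagens, Tbx4, Tbx5 and Hhip remained 2.43, 1.92 and 2.92 higher and Bmp4 0.07 higher. Foxf1, named after its value was seen, was the 1 gene that fell (log2 fold change -1.07, SE 0.07, adjusted p = 1.58e-05), at 604 ± 162 CPM in CD249+ cells against 1263 ± 278 CPM in CD249- cells (SD, n = 4 each). Endothelial markers fell with it, and their part in the Foxf1 difference was not tested.

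**Figure D4:**
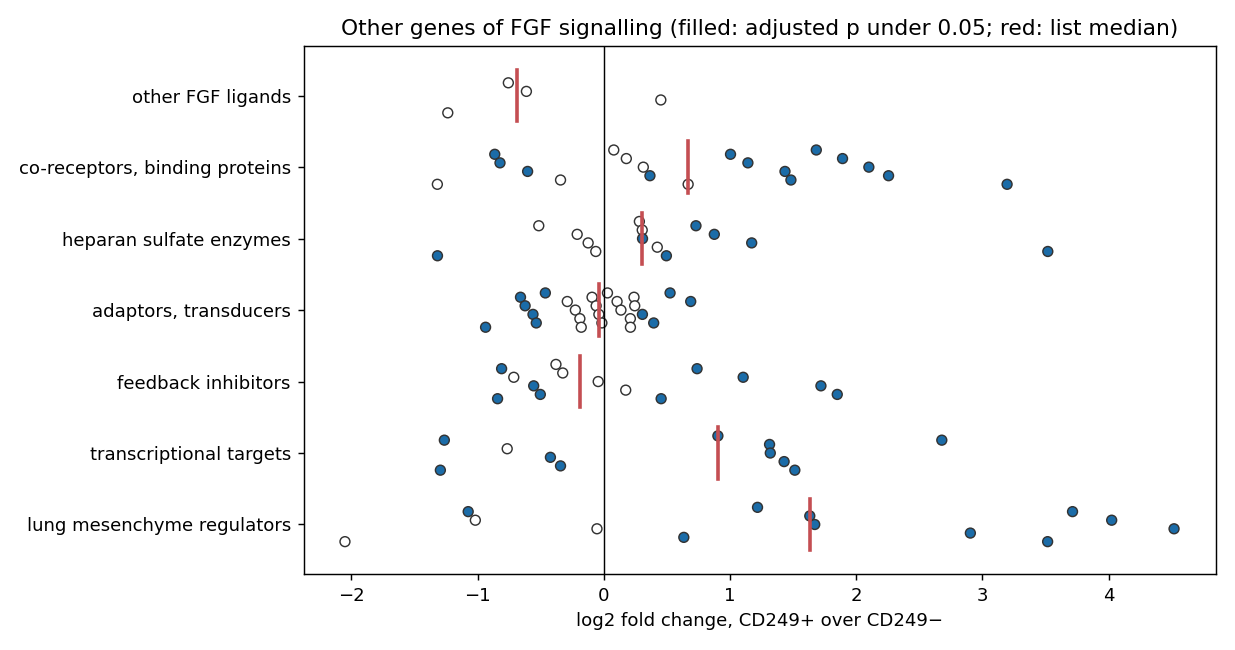
Log2 fold change (CD249+ over CD249-, TMM scaling) of every tested gene in each FGF pathway list, 1 circle per gene, filled where called at an adjusted p under 0.05, with a bar at the median of each list. Lung mesenchyme regulators have a median of 1.63 and adaptors and transducers one of -0.04.

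The genes whose log2 CPM followed Fgf10 most closely over the 8 libraries, among those with a mean of at least 10 CPM, were Adcy2, an adenylate cyclase gene (Pearson r = 0.999), Lhfp (r = 0.998) and Pla2r1, a phospholipase A2 receptor gene (r = 0.997). For Fgfr4 they were Slit2, an axon guidance ligand gene (r = 0.991), Lipa, the lysosomal acid lipase gene (r = 0.988), and Gprasp2 (r = 0.987). These values describe likeness in which the difference between fractions has a large share, and they are given without a test. Likeness did not mean an equal size of difference, since Adcy2 had a log2 fold change of 3.66 and Lhfp one of 0.88.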

How the data were processed

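RNA of 8 libraries was measured by sequencing after oligo(dT)-primed SMART-Seq V4 amplification from 10 ng and Nextera XT library preparation, with single 75 bp reads, per the labels' protocols. The deposited table holds expected counts per gene (estimated counts that need not be whole). Per the submitters' processing notes, the tools were RSEM 1.2.28, STAR 2.6.1, bcl2fastq 2.20, R 3.6.3 and DESeq2 1.26.0, with no roles stated. The only build noted is GRCh38, which is human, while the identifiers are mouse, so which mouse build was counted is not given. Of the gene values 12.0% were not whole, and 92 spike-in entries, all 0, were left out. The kit does not mark strand, and amplified reads carry no molecular identifiers. Depth of 23011383 to 31906414 counts limits genes near 1 CPM.

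Counts were rounded, filtered with filterByExpr by fraction (14524 genes of the 18572 with any count), scaled by TMM and tested with edgeR 4.0.16 (glmQLFit and glmQLFTest, R 4.3.3), two-sided, with mouse as a block and Benjamini-Hochberg adjustment, called at 0.05. Standard errors were derived from the same fit. The block was used because both fractions came from the same lung; deviations from the group means correlated at 0.132 to 0.285 within mice and at -0.212 to 0.0515 between mice. The p-values rest on 4 mice. On simulated data with 14279 genes the test recovered 44.0% of genes changed 1.5-fold, 56.0% changed 2-fold and 96.0% changed 4-fold. It also called 10 unchanged genes. The simulated counts had no mouse effect and the changed genes excluded those with the lowest means, so these rates need not hold for the paired data. Alternatives used other scalings, no filter, no block, limma-voom (limma 3.58.1), DESeq2 1.42.0 and fewer libraries. Coordinates and exonic lengths came from GENCODE M21 (GRCm38), where 99.0% of identifiers matched when the version was ignored, and upstream sequences from RefSeq (GRCm38.p6).

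The 10 FGF genes and all lists were chosen with earlier results of these data known. Named genes were the FGF genes, Enpep, the sort genes Ptprc, Epcam and Pecam1, up to 4 genes per list with the smallest p, the tested other FGF ligands and the 3 genes most like the ligand and the receptor that changed most; others are named in the text as chosen later. A gene that this rule selects is not reported here.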

Additional observations from a re-analysis of the deposited data

Results flagged for a closer look

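A library was singled out where, among the 4 of its fraction, it lay far from the other 3. Of 124 groups of values examined, 10 held such a library, and chance gives about 1 in 20. Fgf10 was singled out in mouse 10 in both fractions, at 78.2 CPM in CD249+ cells against 7.26 CPM in CD249- cells. Epithelial markers of mouse 10 summed to 8367 CPM in CD249+ cells against 726 CPM in CD249- cells, each far above the other mice. In mouse 2, CD249+ cells had a low sum of fibroblast markers (13088 CPM), a high sum of endothelial markers (7145 CPM) and a low level of the collagen gene Col6a2 (1076 CPM).

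Among single pathway genes, Fgf11 was high in CD249+ cells of mouse 10 (5.96 CPM), and CD249- cells of mouse 2 were high for Fgf14 (1.06 CPM) and Plcg1 (340 CPM). Of the 10 FGF ligand and receptor genes, the Fgf10 values were the only ones of this kind.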

How the results depend on the processing

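All 10 FGF genes kept their direction under 20 of the 21 alternative fits, the exception being the scaling to collagens. Calls were lost for Fgfr2 in mice 2 and 10 alone (0.87) and for Fgf1 with the block dropped and CD249+ replicate 8 left out (-0.54; -0.78 to -0.54 over the fits that left out libraries). Without the mouse pairing (no block), 4468 genes were called in place of 5298, 2455 higher and 2013 lower, and no call of the 10 genes changed; Ptprc (-0.96, adjusted p = 0.0635, against -0.90 and 0.0126 with the block) lost its call, Epcam turned to 0.10, and coreceptors had 1 gene lower. Scaled to collagens, 12091 genes were called, 607 higher (5.02%) and 11484 lower (95.0%); with library size alone the split was 43.5% higher and 56.5% lower, against 53.0% and 47.0%. The collagen scaling reversed Fgf9 (-0.16), Fgfr1 (-0.21), Fgfr2 (-0.51), Fgfr3 (-0.44), Fgf11 (-1.16), Gpc3 (-0.16), Ext1 (-0.43), Hs6st1 (-0.72), Spred1 (-0.86), Egr1 (-0.17), Phlda1 (-0.087), Col3a1 (-0.026), Lhfp (-0.72) and Lipa (-0.81). Sdc2, Spry1, Lrig1, Bmp4 and Gprasp2 lost their calls there, and Epcam, Fgf11, Fgf14 and Fgf16 gained one, all lower in CD249+ cells. By its construction it lowers every fold change.

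Under the collagen scaling other ligands gave 0, 3 and -2.29 as genes higher, genes lower and median log2 fold change. In the same order coreceptors gave 3, 10 and -0.91, heparan sulfate enzymes 1, 12 and -1.30 and adaptors 0, 25 and -1.64. Feedback inhibitors gave 0, 11 and -1.78 and lung mesenchyme regulators 5, 4 and 0.038. Targets had 1 gene higher and a median of -0.70. Mice 2 and 10 alone gave 3114 calls, 1786 higher and 1328 lower, Epcam at 0.69, and 6 coreceptors, 1 adaptor and 3 feedback inhibitors higher. Mice 7 and 8 alone gave 1 coreceptor, 2 heparan sulfate enzymes and 2 targets lower, 2 adaptors higher and a heparan sulfate median of 0.46. Heparan sulfate enzymes also had 2 genes lower with limma-voom, with library size alone and without the low-count filter, limma-voom put Epcam at 0.15, and DESeq2 called 2 regulators lower. Without the filter the medians were 1.10 for other ligands and 0.28 for targets. With the longest transcript as gene length, chosen after seeing the data, the Fgfr2 share was 8.49% in CD249+ and 10.3% in CD249- cells. The cause of these shifts was not tested.

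Over the 12 fits that left out a mouse or a library, genes called lower ran from 1563 to 2133, and Epcam from -0.50 to 0.41, Fgf13 from -1.70 to 0.23, Fgf14 from -2.47 to 0.075 and Ptprc from -1.23 to -0.62. Coreceptors had 0 to 3 genes lower and a median of 0.46 to 1.20, heparan sulfate enzymes 1 to 2 lower and 0.20 to 0.46, adaptors 2 to 4 higher, feedback inhibitors 3 to 4 higher, targets 3 to 6 higher, 1 to 4 lower and 0.69 to 1.16, and regulators a median of 1.53 to 1.74. Genes near 1 CPM, such as Fgf9, Fgf13 and Fgf14, are limited by depth.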

Other observations

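Fgf23 and Fgf5 had too few counts to be tested. Fgf23 averaged 0.37 ± 0.557 CPM in CD249+ cells against 0.0104 ± 0.0209 CPM in CD249- cells (SD, n = 4 each), and Fgf5 0.338 ± 0.309 CPM in CD249+ cells against 0.0788 ± 0.158 CPM in CD249- cells. Wnt2, a mesenchymal Wnt ligand gene, had 70.0 ± 20.8 CPM in CD249+ cells against 5.39 ± 2.06 CPM in CD249- cells (log2 fold change 3.71, SE 0.34, edgeR adjusted p = 6.9e-05), and Tcf21, a fibroblast factor gene that is also in 2 of the marker lists, 224 ± 37.0 CPM in CD249+ cells against 30.7 ± 9.64 CPM in CD249- cells (log2 fold change 2.90, SE 0.17, adjusted p = 9e-06). Wnt2b, a ligand gene of the same family as Wnt2, stood at 2.82 ± 1.17 CPM in CD249+ cells against 5.36 ± 0.891 CPM in CD249- cells and did not pass the test (log2 fold change -1.02, SE 0.39, adjusted p = 0.078). All 5 genes were chosen after their values were seen.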
